A study of Homo sapiens with 4 samples.

Results

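The genes described here are 47 genes of 5p, the short arm of human chromosome 5, listed because earlier results on the same arrays had shown them lower in the AIRE1 line. Members were found by matching gene symbols to the array's probe annotation, which named 46 of the 47, and 39 were measured. The 11947 genes measured on these arrays include 50 others of 5p and 441 of 5q, the long arm. The members were selected on their log2 differences between AIRE1 and the other lines, so what follows on AIRE1 is a description. Tests are read only for genes outside the arm and in the contrasts that hold no AIRE1 array; calls of 5p genes in AIRE1 are given as counts.

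Illumina bead arrays were hybridised with RNA from 4 stable lines made from HEK293, an immortalised human embryonic kidney line whose karyotype is known to be abnormal and to vary between sublines. NC, the control, makes yellow fluorescent protein from the cytomegalovirus immediate-early promoter. AIRE1 and AIRE2 are separate clones that make the autoimmune regulator AIRE from that promoter, and AIRE-D312A makes AIRE with the D312A substitution in its first PHD finger, a zinc-binding fold that reads histone H3 tails. Each line was grown in 3 independent experiments, giving 3 arrays a line and 12 in all. Each line is a single one, so the p-values measure the spread between experiments, and what the transgene did cannot be told apart from whatever else sets 1 line off from another.

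The short arm of chromosome 5 carries, near its tip, the telomerase gene TERT, the succinate dehydrogenase gene SDHA and the spindle checkpoint gene TRIP13. Loss of its outer part from 1 chromosome causes cri-du-chat syndrome. When a cell gains or loses copies of an arm, the RNA of most genes on it shifts by about the ratio of the copy numbers. Genes under strong regulation can depart from that ratio, and genes elsewhere whose products join the same complexes usually keep their RNA level. AIRE itself is a nuclear protein of thymic epithelium that raises the transcription of tissue-restricted genes.

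The transgene read as labelled: the AIRE probe was not well above background in NC, at 4.44 ± 0.10 on the normalised log2 scale (SD, n = 3), and read 8.90 ± 0.21 in the AIRE1 line, against 8.51 ± 0.40 for AIRE2 and 8.31 ± 0.11 for AIRE-D312A. Those levels were at least 15.6-fold, 11.9-fold and 10.4-fold higher than the control's (highest of the 3 adjusted p-values 6.97e-07, limma). Such a bound sets the bright line's mean against the lowest signal that counted as detected. The HEK293 genes VIM, NEFL, KRT8 and KRT18 were detected on all 12 arrays. Between 15823 and 17288 of 48701 probes were detected per array at p under 0.01, and the number of arrays, 3 a line, limits the precision. The deposited detection p-values of AIRE-D312A replicate 3 equalled those of AIRE1 replicate 3 and were not used. By its intensities that array read with its own line, with a member median 0.07 below the NC mean against 0.49 below for AIRE1 replicate 3.

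The member genes lay lower in AIRE1 than in each other line by a similar amount. On the log2 scale the median difference over the 39 members was -0.47 from NC, -0.47 from AIRE2 and -0.43 from AIRE-D312A, which is 72.3%, 72.0% and 74.1% of the other line's level. In AIRE1 minus NC 38 of 39 differences were below 0, in AIRE1 minus AIRE2 38, and in AIRE1 minus AIRE-D312A 39. Over all genes measured the medians of the same differences were 0.01, -0.01 and 0.00. The interquartile range of the members was 0.24, 0.28 and 0.15 log2 units, against 0.29, 0.21 and 0.24 for genes of 5q. The list was chosen for lower AIRE1 values, which can narrow its spread, so the members' range is not read as that of the arm. For the 50 other measured genes of 5p the ranges were wider, at 0.60, 0.38 and 0.37. The standard error of a single member's difference was typically 0.13. These arrays read RNA from whole cultures, so less RNA in every cell and a larger loss in some of the cells cannot be told apart.

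Array by array, the median of the members relative to each gene's NC mean was -0.49, -0.50 and -0.49 in the 3 AIRE1 experiments. It was -0.02, 0.01 and -0.02 in NC, 0.01, 0.02 and -0.07 in AIRE2, and -0.04, -0.05 and -0.07 in AIRE-D312A. The AIRE1 arrays thus lay under every array of the other lines, which overlapped. All 3 AIRE1 arrays lay below all 3 NC arrays for 31 of the 39 members, where 11.3% of all genes measured did so. For 24 members they lay below all 9 other arrays, as 1.98% of all genes did.

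**Figure D1:**
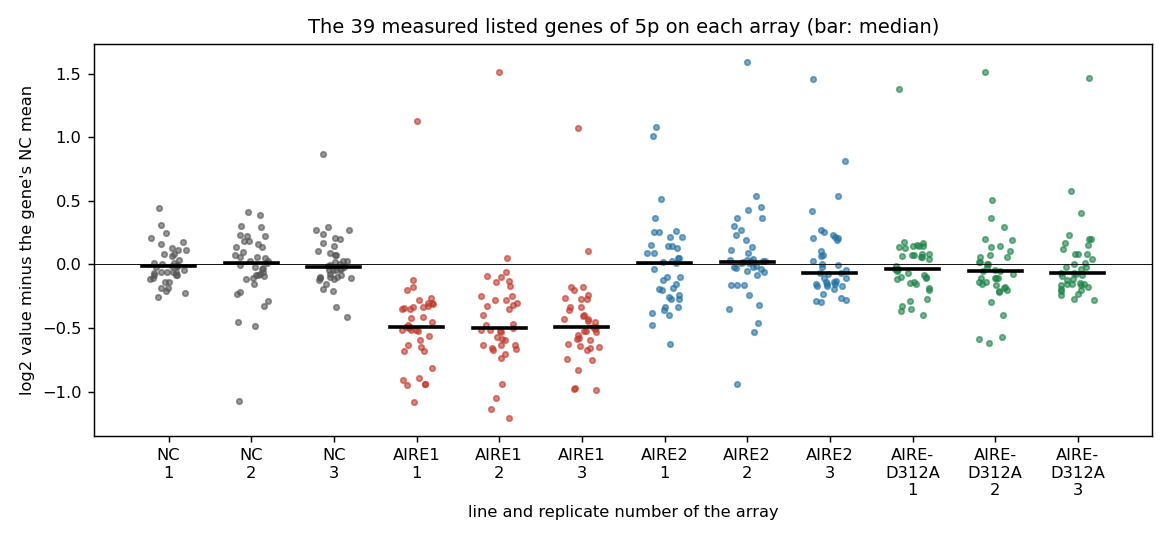
Each point is 1 of the 39 measured members on 1 array, as its normalised log2 value minus that gene's mean in NC; black bars are the median of the members. The bars of the 3 AIRE1 arrays lie between -0.50 and -0.49, those of the 9 other arrays between -0.07 and 0.02, and the highest point in each AIRE1, AIRE2 and AIRE-D312A column is OXCT1, except that RPL37 lies just above it on AIRE2 replicate 1.

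By limma's moderated test, with Benjamini-Hochberg adjustment over all 11947 genes and a call at an adjusted p under 0.05, 20 members were called lower and 1 higher in AIRE1 than in NC, where 3.06% of all genes were called lower and 5.21% higher. Against AIRE2, 13 members were called lower (1.02% of all genes), and against AIRE-D312A 10 (0.778% of all genes). Since AIRE1 values chose the members, nothing is read from these counts. Arrays of 1 replicate number deviated together, and with that number as a block the counts of lower members were 31, 30 and 31, where 10.2%, 5.84% and 3.87% of all genes were called lower. With arrays centred on their medians in place of quantile normalisation, 3, 1 and 1 were called lower; the median of all genes then shifted by 0.14, 0.06 and 0.06, and the members' median minus that of all genes was -0.48, -0.45 and -0.45. Without AIRE1 replicate 2 the total of members called against NC was 13. Against AIRE2 it was 7 without AIRE1 replicate 1 or 2 and 8 without AIRE2 replicate 3, and against AIRE-D312A it was 6 without any 1 array of AIRE1 or AIRE-D312A.

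Promoter windows of 4 members are shown, the pair at the tip of the arm and the members at the lowest and highest end of the AIRE1 to NC differences. SDHA and CCDC127 are the outermost measured genes of the arm and start 167 bases apart on opposite strands, so their windows overlap; MYO10 had the lowest AIRE1 to NC difference among the members, and OXCT1 was the member higher in AIRE1 than in NC. The windows run from 250 bases before to 50 bases after the RefSeq gene start in GRCh38.p14, 5' to 3' on the gene's strand: chr5:218070-218369 on the plus strand for SDHA, chr5:218104-218403 on the minus strand for CCDC127, chr5:16936239-16936538 on the minus strand for MYO10 and chr5:41870376-41870675 on the minus strand for OXCT1. Capitals mark the GC box letters GGGCGG and the letters of the NRF1 motif (GCGCA, any base, GCGC), each on either strand.
SDHA: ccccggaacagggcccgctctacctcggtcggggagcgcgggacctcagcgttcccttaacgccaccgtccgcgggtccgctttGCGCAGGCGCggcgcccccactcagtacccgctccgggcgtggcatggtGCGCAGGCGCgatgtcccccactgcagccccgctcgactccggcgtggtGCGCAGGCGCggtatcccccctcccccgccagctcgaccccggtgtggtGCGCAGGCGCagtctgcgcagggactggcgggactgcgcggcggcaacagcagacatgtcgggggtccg
CCDC127: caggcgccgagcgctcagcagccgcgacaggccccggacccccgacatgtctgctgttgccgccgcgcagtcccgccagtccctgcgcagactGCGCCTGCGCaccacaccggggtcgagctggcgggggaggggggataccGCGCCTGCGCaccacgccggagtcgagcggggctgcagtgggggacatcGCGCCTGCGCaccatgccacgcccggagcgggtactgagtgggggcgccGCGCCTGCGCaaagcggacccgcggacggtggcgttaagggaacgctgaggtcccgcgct
MYO10: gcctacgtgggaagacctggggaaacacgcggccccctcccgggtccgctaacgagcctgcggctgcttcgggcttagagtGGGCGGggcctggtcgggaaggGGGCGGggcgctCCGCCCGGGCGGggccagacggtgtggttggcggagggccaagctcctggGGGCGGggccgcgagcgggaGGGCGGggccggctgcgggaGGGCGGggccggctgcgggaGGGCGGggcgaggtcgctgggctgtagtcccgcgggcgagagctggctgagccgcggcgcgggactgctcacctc
OXCT1: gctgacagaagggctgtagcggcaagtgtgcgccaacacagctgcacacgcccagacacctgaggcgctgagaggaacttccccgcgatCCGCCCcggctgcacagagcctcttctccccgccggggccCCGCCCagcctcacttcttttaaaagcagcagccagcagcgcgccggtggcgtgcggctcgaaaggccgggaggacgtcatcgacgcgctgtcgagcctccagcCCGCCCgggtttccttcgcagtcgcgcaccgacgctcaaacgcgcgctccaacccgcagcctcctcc
The SDHA and CCDC127 windows held 4 NRF1 motifs each, the same stretches read from both strands, and no GC box. The MYO10 window held 8 GC boxes and the OXCT1 window 3, none of them overlapping an NRF1 motif, which neither window held.

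Of the 47 members, 41 had a window in the RefSeq table. A GC box was found in 31 of these (75.6%), against 45% of all 35116 windows. The letters CCAAT were found in 10 (24.4%, against 34.6%) and TATAAA in 0 (against 11.5%). The NRF1 letters, searched after the windows had been read, were found in 7 (17.1%, against 5.78%): CCDC127, CCT5, CLPTM1L, MRPL36, SDHA, SRD5A1 and ZFR. SDHA and CCDC127 hold the same stretches and are counted separately. The median GC content was 67.7% for the members and 58.7% for all windows. The 35116 windows outnumber the 19304 genes named on the array and were not matched to the members by gene type or expression. The differences in share are therefore not read as traits of these genes. These matches describe letters and not binding. Genes with and without the NRF1 letters lay at both ends of the member range, with SRD5A1 at -0.91 and ZFR at -0.18 in AIRE1 minus NC.

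Among genes of mitochondria, SDHA, the flavoprotein subunit of succinate dehydrogenase, read 10.09, 10.18 and 10.18 in NC and 9.47, 9.49 and 9.56 in AIRE1. It read 10.12, 10.12 and 10.34 in AIRE2 and 10.11, 10.21 and 10.30 in AIRE-D312A. All AIRE1 arrays were below the 9 others, which overlapped, and the differences of AIRE1 from NC, AIRE2 and AIRE-D312A were -0.65, -0.69 and -0.71 (SE 0.09). SDHA has pseudogene copies elsewhere in the genome, and whether its probe also reads them was not tested. MRPL36, a protein of the large mitochondrial ribosomal subunit, read 11.62 ± 0.16 in NC and 11.02 ± 0.08 in AIRE1, against 11.54 ± 0.15 in AIRE2 and 11.44 ± 0.03 in AIRE-D312A (SD, n = 3), again with AIRE1 below all other arrays. NDUFS6, a subunit of respiratory complex I, read 13.24, 13.74 and 12.99 in NC and 12.99, 13.37 and 12.67 in AIRE1. Its replicate 2 array was the highest in every line, and AIRE1 overlapped NC, with a difference of -0.31 ± 0.27 (SE, without the replicate block). Each AIRE1 array of NDUFS6 still lay below the NC array of its own replicate number.

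FASTKD3, which acts on mitochondrial RNA, and AMACR, a racemase of branched fatty acid breakdown, differed by -0.45 and -0.43 in AIRE1 minus NC. MTRR, which reactivates methionine synthase, differed by -0.33. The AIRE1 arrays of these 3 genes lay below all NC arrays. OXCT1, the remaining mitochondrial member, is taken up with the departures.

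Among genes of translation and folding, CCT5, the epsilon subunit of the cytosolic chaperonin, read 8.24, 8.64 and 8.47 in NC and 7.51, 7.86 and 7.70 in AIRE1, against 8.05, 8.48 and 8.17 in AIRE2 and 8.16, 8.23 and 8.29 in AIRE-D312A. AIRE1 stayed below the other 9 arrays, with differences of -0.76, -0.55 and -0.54 from the 3 lines. BRIX1, a ribosome assembly factor, read 11.72 ± 0.16 in NC and 11.37 ± 0.07 in AIRE1, against 11.80 ± 0.14 in AIRE2 and 11.75 ± 0.05 in AIRE-D312A, with no AIRE1 array overlapping another line. NSUN2, an RNA cytosine methyltransferase, and DNAJC21, a co-chaperone of ribosome assembly, differed by -0.47 and -0.56 from NC. RPL37, a ribosomal protein with pseudogene copies, spread so widely (9.66, 8.38 and 10.32 in NC and 9.26, 8.51 and 9.56 in AIRE1) that its difference of -0.34 ± 0.58 (SE) was smaller than its standard error.

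Genes of RNA processing and the genome had AIRE1 differences on either side of the member median. DROSHA, the nuclease that starts microRNA processing, read 10.31, 10.21 and 10.37 in NC and 9.78, 9.77 and 9.85 in AIRE1, against 10.44, 10.30 and 10.22 in AIRE2 and 10.38, 10.30 and 10.31 in AIRE-D312A. Its 3 AIRE1 differences, -0.50, -0.52 and -0.53 (SE 0.09), were nearly equal. TRIP13, the ATPase that takes apart spindle checkpoint complexes, read 11.30, 11.44 and 11.35 in NC and 10.45, 10.66 and 10.39 in AIRE1, against 11.24, 11.48 and 11.36 in AIRE2 and 11.26, 11.26 and 11.14 in AIRE-D312A. Its differences of -0.86, -0.86 and -0.72 were larger than the member median in each comparison by more than 0.25. BRD9, a bromodomain subunit of a SWI/SNF remodelling complex and the neighbour of TRIP13, read 10.36, 10.38 and 10.23 in NC and 9.38, 9.59 and 9.35 in AIRE1; in AIRE2 it read 10.05, 10.34 and 10.03, and in AIRE-D312A 10.21, 10.16 and 10.08. Its AIRE1 arrays lay below the other 9, and its difference from NC was -0.88.

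SUB1, a transcription coactivator, RAD1, a part of the DNA damage clamp, and NIPBL, the cohesin loader, differed by -0.48, -0.35 and -0.57 from NC. The NC arrays of NIPBL ran from 7.30 to 8.09, wider than its difference, and AIRE1 overlapped them, though each AIRE1 array lay below the NC array of its own replicate number. ZFR, a zinc finger RNA-binding protein, stood nearest to no difference in this group: it read 10.65, 10.72 and 10.61 in NC and 10.39, 10.56 and 10.48 in AIRE1, against 10.71, 10.85 and 10.59 in AIRE2 and 10.52, 10.55 and 10.45 in AIRE-D312A. Its AIRE1 arrays overlapped those of AIRE-D312A, with a difference of -0.03 ± 0.09 (SE) between those lines.

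**Figure D2:**
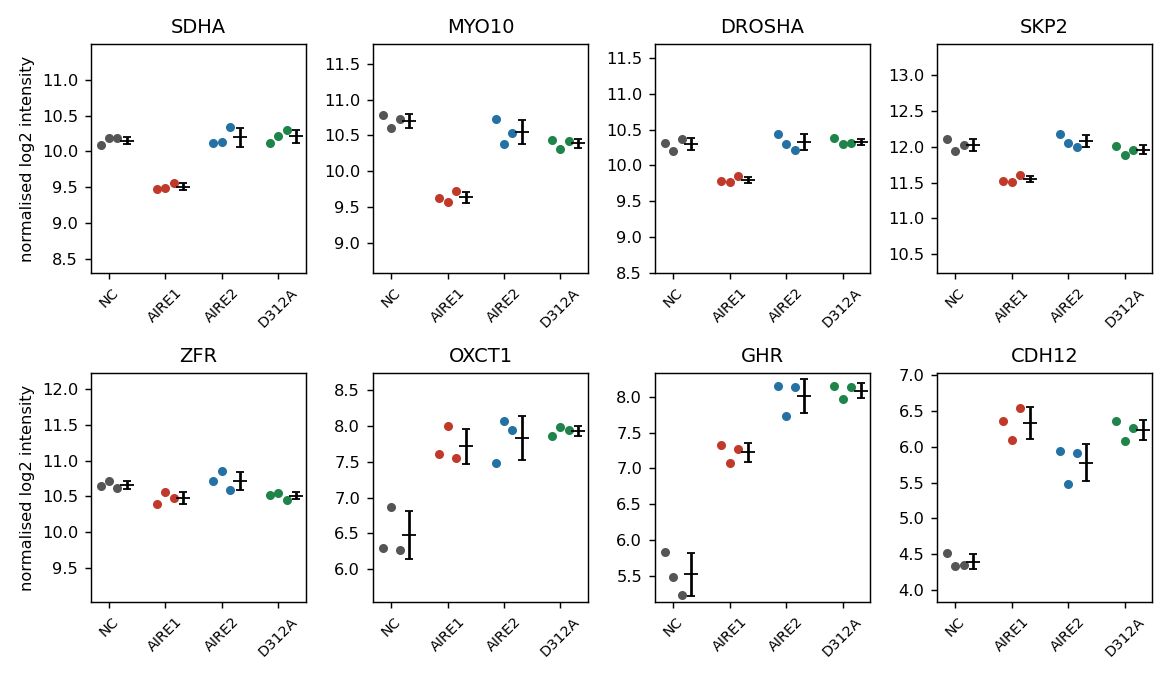
Normalised log2 intensity of 8 genes of 5p on each array (points, in replicate order) with the line mean and SD beside them (n = 3 a line); each panel spans the same number of log2 units. SDHA, MYO10, DROSHA and SKP2 are lowest in AIRE1, ZFR overlaps between AIRE1 and D312A (the AIRE-D312A line), and OXCT1, GHR and CDH12 are lowest in NC.

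Among signalling genes, SKP2, which hands the cell cycle inhibitor p27 to degradation, read 12.11, 11.95 and 12.03 in NC and 11.53, 11.51 and 11.60 in AIRE1, against 12.17, 12.06 and 12.003 in AIRE2 and 12.02, 11.89 and 11.96 in AIRE-D312A. The AIRE1 arrays were below all others, with differences of -0.48, -0.53 and -0.41. Its 2 further probes gave -0.59 and -0.70 from NC. PRKAA1, the catalytic alpha subunit of AMP-activated kinase, read 7.57 ± 0.17 in NC and 7.07 ± 0.08 in AIRE1, against 7.60 ± 0.09 in AIRE2 and 7.52 ± 0.11 in AIRE-D312A, with no overlap between AIRE1 and the rest. LIFR, the receptor for leukaemia inhibitory factor, read 7.84, 7.14 and 7.80 in NC and 6.70, 6.54 and 6.76 in AIRE1, against 7.81, 7.13 and 7.33 in AIRE2 and 7.24, 7.29 and 7.32 in AIRE-D312A; its difference from NC, -0.92 ± 0.20 (SE), was among the 5 lowest. RICTOR, the defining subunit of mTOR complex 2, differed by -0.36, with a NC array of 9.11 inside the AIRE1 range of 8.94 to 9.17. By replicate number, each AIRE1 array of RICTOR lay below its NC counterpart.

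Among genes of membranes, transport and the cytoskeleton, MYO10, the motor of filopodia, read 10.78, 10.60 and 10.72 in NC and 9.62, 9.57 and 9.72 in AIRE1, against 10.73, 10.39 and 10.54 in AIRE2 and 10.43, 10.31 and 10.42 in AIRE-D312A. Its AIRE1 differences of -1.07, -0.92 and -0.75 (SE 0.10) were the lowest of the 39 in all 3 comparisons. GOLPH3, a Golgi phosphoinositide reader, read 10.44 ± 0.13 in NC and 10.05 ± 0.10 in AIRE1, against 10.51 ± 0.13 in AIRE2 and 10.41 ± 0.12 in AIRE-D312A, and RAI14, an actin-binding protein, differed by -0.47 from NC. NUP155 of the nuclear pore, MTMR12 of the myotubularin family and the potassium-chloride cotransporter SLC12A7 differed by -0.39, -0.64 and -0.56. CLPTM1L, a membrane protein encoded beside TERT, the endocytic adaptor DAB2 and ANKH, which lets pyrophosphate out of cells, differed by -0.24, -0.24 and -0.40. The AIRE1 arrays of CLPTM1L and ANKH overlapped those of NC, though each lay below the NC array of its own replicate number. ANKH stood close to the detection limit and was detected on 2 NC arrays and 1 AIRE1 array, so its difference is poorly measured.

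Of the other members, CCDC127, a coiled-coil protein gene that shares its start region with SDHA, read 9.39, 9.41 and 9.61 in NC and 8.90, 8.84 and 8.94 in AIRE1, against 9.62, 9.41 and 9.68 in AIRE2 and 9.54, 9.49 and 9.67 in AIRE-D312A, so that its 3 differences of -0.58, -0.68 and -0.67 ran close to those of SDHA. SRD5A1, a steroid 5-alpha-reductase, read 7.17, 6.87 and 7.43 in NC and 6.21, 5.95 and 6.58 in AIRE1. In AIRE2 it read 7.01, 6.63 and 7.01 and in AIRE-D312A 6.76, 6.57 and 6.98, and AIRE1 replicate 3 reached into the range of AIRE-D312A. LMBRD2 and TTC33 differed by -0.40 and -0.38 from NC. The adhesion and axon genes on the list, SEMA5A, CTNND2 and CDH6, were detected on 0 arrays, nor was NPR3, the natriuretic peptide clearance receptor. TERT and OSMR, the oncostatin M receptor, were each detected on 1 array and FBXL7 on 2 arrays, all short of the filter, and DAP was not named by the probe annotation.

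Of the 39 members, 37 lay below 0 in all 3 AIRE1 comparisons. In the single comparisons 48.7%, 51.7% and 50.7% of all genes lay below 0. Called lower in all 3 were 9 members, BRD9, CCDC127, DROSHA, MYO10, PRKAA1, RAI14, SDHA, SKP2 and TRIP13. Another 4 were called in 2, 8 in 1 and 18 in none. Taken singly, the comparisons had 3.06%, 1.02% and 0.778% of all genes called lower. Shares of all genes over the 3 together were not computed, and nothing is read from these counts. AMACR, BRD9, DNAJC21, NIPBL, NUP155 and SKP2 had further probes past the filter, and each of those probes was also below 0 in all 3 comparisons, between -0.70 and -0.11. When the members were split into 3 groups of 13 by mean signal, the AIRE1 minus NC medians were -0.56 for the dimmest, -0.38 for the middle and -0.47 for the brightest; from AIRE-D312A they were -0.43, -0.44 and -0.42.

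Some members departed by more than 0.25 from the member median. In AIRE1 minus NC OXCT1, ZFR, PLCXD3 and WDR70 lay above it and MYO10, LIFR, SRD5A1, BRD9, TRIP13 and CCT5 below it, which left 29 of 39 within 0.25. From AIRE2 31 members and from AIRE-D312A 33 lay within 0.25. Fewer of the 50 other measured genes of 5p lay that close to the member median, 20 from NC, 29 from AIRE2 and 30 from AIRE-D312A. MYO10 and TRIP13 were over 0.25 below in all 3 comparisons and PLCXD3, a phospholipase C-like protein gene, over 0.25 above in all 3. PLCXD3 read 5.11, 5.04 and 5.19 in NC and 4.93, 4.95 and 4.91 in AIRE1, against 4.73, 5.09 and 4.82 in AIRE2 and 5.18, 5.06 and 4.96 in AIRE-D312A. It stood close to the detection limit, was detected on 1 of the 3 AIRE2 arrays, and its differences are therefore poorly measured; it was the only member not below 0 from AIRE2. WDR70, a WD-repeat protein gene, read 8.45, 8.60 and 8.34 in NC and 8.13, 8.4 and 8.29 in AIRE1, against 8.47, 8.74 and 8.72 in AIRE2 and 8.61, 8.83 and 8.87 in AIRE-D312A. Its difference was -0.19 from NC, but -0.37 and -0.49 from AIRE2 and AIRE-D312A. AIRE1 overlapped NC, though each AIRE1 array lay below the NC array of its own replicate number.

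OXCT1, the transferase that lets tissues burn ketone bodies, was the 1 member higher in AIRE1 than in NC. It read 6.29, 6.87 and 6.27 in NC and 7.61, 8.0 and 7.55 in AIRE1, against 7.49, 8.07 and 7.94 in AIRE2 and 7.86, 7.99 and 7.95 in AIRE-D312A. All 9 arrays of the AIRE lines lay above all NC arrays and overlapped among themselves. The AIRE1 minus NC difference was 1.24 ± 0.19 (SE). In the contrasts that played no part in choosing the members, OXCT1 rose in AIRE2 by 1.36 ± 0.19 (adjusted p = 0.000913) and in AIRE-D312A by 1.46 ± 0.19 (adjusted p = 0.00131, limma). From these 2 lines AIRE1 differed by -0.12 and -0.21.

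In the 3 comparisons without AIRE1 the members centred near 0. Their median difference was 0.03 in AIRE2 minus NC, -0.04 in AIRE-D312A minus NC and 0.01 in AIRE2 minus AIRE-D312A, with 16, 24 and 17 of 39 below 0. In AIRE2 against NC 1 member was called lower and 1 higher, where 9.46% of all genes were called. SLC12A7 fell by 0.32 ± 0.09 (SE; adjusted p = 0.0494, limma) and OXCT1 rose. SLC12A7 read 5.90, 5.95 and 6.06 in NC and 5.46, 5.30 and 5.48 in AIRE1, against 5.61, 5.62 and 5.74 in AIRE2 and 5.77, 5.92 and 5.82 in AIRE-D312A. No lower member was called in this contrast when any 1 array other than AIRE2 replicate 2 was left out, or after median centring. In AIRE-D312A against NC OXCT1 was the 1 member called, where 3.97% of all genes were; at an unadjusted p under 0.05 there was 1 lower member, and 2 higher with OXCT1 among them, where 15.6% of all genes differed in either direction. In AIRE2 against AIRE-D312A 0 members were called by limma, where 2.22% of all genes were called, and 3 were higher at an unadjusted p under 0.05, where 14.9% of all genes differed.

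With the replicate number as a block, 2 members were lower and 3 higher in AIRE2 than in NC, where 26.6% of all genes were called. The lower ones were SLC12A7 and SRD5A1 (-0.28, adjusted p = 0.024), and the higher ones OXCT1, SUB1 (0.27, 0.0116) and DNAJC21 (0.33, 0.0201). In AIRE-D312A against NC, where 16.4% of all genes were called, MYO10 (-0.32, adjusted p = 0.0136) and SRD5A1 (-0.39, 0.00713) were lower and WDR70 (0.31, 0.0254) and OXCT1 higher. SUB1 and DNAJC21 were also higher in AIRE2 than in AIRE-D312A (0.35 and 0.37, adjusted p = 0.00559 and 0.0171, limma with the block), where 15.7% of all genes were called. The shares of members called were thus at or below the shares of all genes in each of these contrasts.

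The 50 measured genes of 5p that are not on the list also lay lower in AIRE1, with a wider spread. Their medians were -0.36 from NC, -0.50 from AIRE2 and -0.41 from AIRE-D312A, with 38, 45 and 46 of 50 below 0. Their interquartile ranges were 0.60, 0.38 and 0.37. By annotation 4 of them were pseudogenes, whose probes may read a near-identical gene elsewhere, and the 46 without these had medians of -0.38, -0.53 and -0.43. In AIRE1 against NC, 18 of the 50 were called lower and 3 higher, where 3.06% of all genes were called lower and 5.21% higher. Taking all 89 measured genes of the arm, 38 were called lower and 4 higher, beside the same shares of all genes.

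CDH12, a type II cadherin of neurons, departed furthest. It was not well above background in NC (4.51, 4.34 and 4.34) and read 6.37, 6.10 and 6.55 in AIRE1, against 5.95, 5.49 and 5.91 in AIRE2 and 6.36, 6.09 and 6.26 in AIRE-D312A. Every array of the AIRE lines lay above NC, by at least 2.64-fold for AIRE1, 1.79-fold for AIRE2 and 2.46-fold for AIRE-D312A. CDH12 passed the detection filter only through the AIRE lines, where it is high, so these bounds are a description and no test is read from them. CDH10, another type II cadherin gene, read 4.42, 4.43 and 4.42 in NC and 6.20, 5.84 and 6.05 in AIRE1, against 5.09, 4.58 and 5.08 in AIRE2 and 4.50, 4.31 and 4.43 in AIRE-D312A. AIRE1 stood above all other arrays, at least 2.13-fold higher than NC and 2.19-fold higher than AIRE-D312A, neither of which had it above background on any array. CDH10 passed the detection filter through AIRE1 alone, so its higher values there are a description and no test is read from them. In AIRE2 it was detected on 2 of the 3 arrays, close to the limit, so no fold is given there.

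GHR, the growth hormone receptor, read 5.84, 5.49 and 5.23 in NC and 7.33, 7.08 and 7.27 in AIRE1, against 8.15, 7.74 and 8.14 in AIRE2 and 8.15, 7.97 and 8.14 in AIRE-D312A. AIRE1 thus lay above all NC arrays, by 1.71 ± 0.16 (SE), and below all arrays of the other AIRE lines, by -0.78 from AIRE2 and -0.86 from AIRE-D312A. UGT3A2, a glycosyltransferase gene, read 6.51, 6.33 and 5.73 in NC and 6.91, 6.83 and 6.65 in AIRE1, against 6.64, 7.42 and 7.20 in AIRE2 and 7.23, 7.09 and 7.04 in AIRE-D312A. It stood 0.89 above NC in AIRE2 and 0.93 in AIRE-D312A (adjusted p = 0.0224 and 0.0341, limma), and 0.60 ± 0.22 (SE) in AIRE1. OTULINL, a relative of the deubiquitinase OTULIN, departed downward: it read 8.79, 8.59 and 9.29 in NC and 7.43, 7.40 and 7.66 in AIRE1, against 7.96, 7.71 and 8.29 in AIRE2 and 8.15, 8.29 and 8.84 in AIRE-D312A. Its AIRE1 arrays were the lowest of the 12 and AIRE2 lay below NC as well, by -0.91 (adjusted p = 0.0221, limma). UGT3A2 and OTULINL were both named for their AIRE1 minus NC differences. The contrasts of AIRE2 and AIRE-D312A with NC use the same NC arrays, so these p-values are not read as tests.

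Along the arm lower values in AIRE1 ran from the tip to the centromere. In blocks of 10 measured genes from the tip, all 10 genes of the first block, CCDC127 to NKD2, were lower in AIRE1 than in each other line, with medians of -0.70, -0.70 and -0.69 from NC, AIRE2 and AIRE-D312A. The later blocks had medians between -0.54 and -0.23 from NC and between -0.57 and -0.27 from AIRE2. The block with the smallest medians from NC, AIRE2 and AIRE-D312A, -0.23, -0.27 and -0.32, ran from OTULIN to CDH10 and held both cadherins named above. Of the 10 measured genes of 5p next to the centromere, 9 were lower in AIRE1 in each comparison, with medians of -0.29, -0.47 and -0.33. The 10 nearest genes of 5q had medians of 0.05, -0.11 and 0.14, with 3, 5 and 3 below 0.

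**Figure D3:**
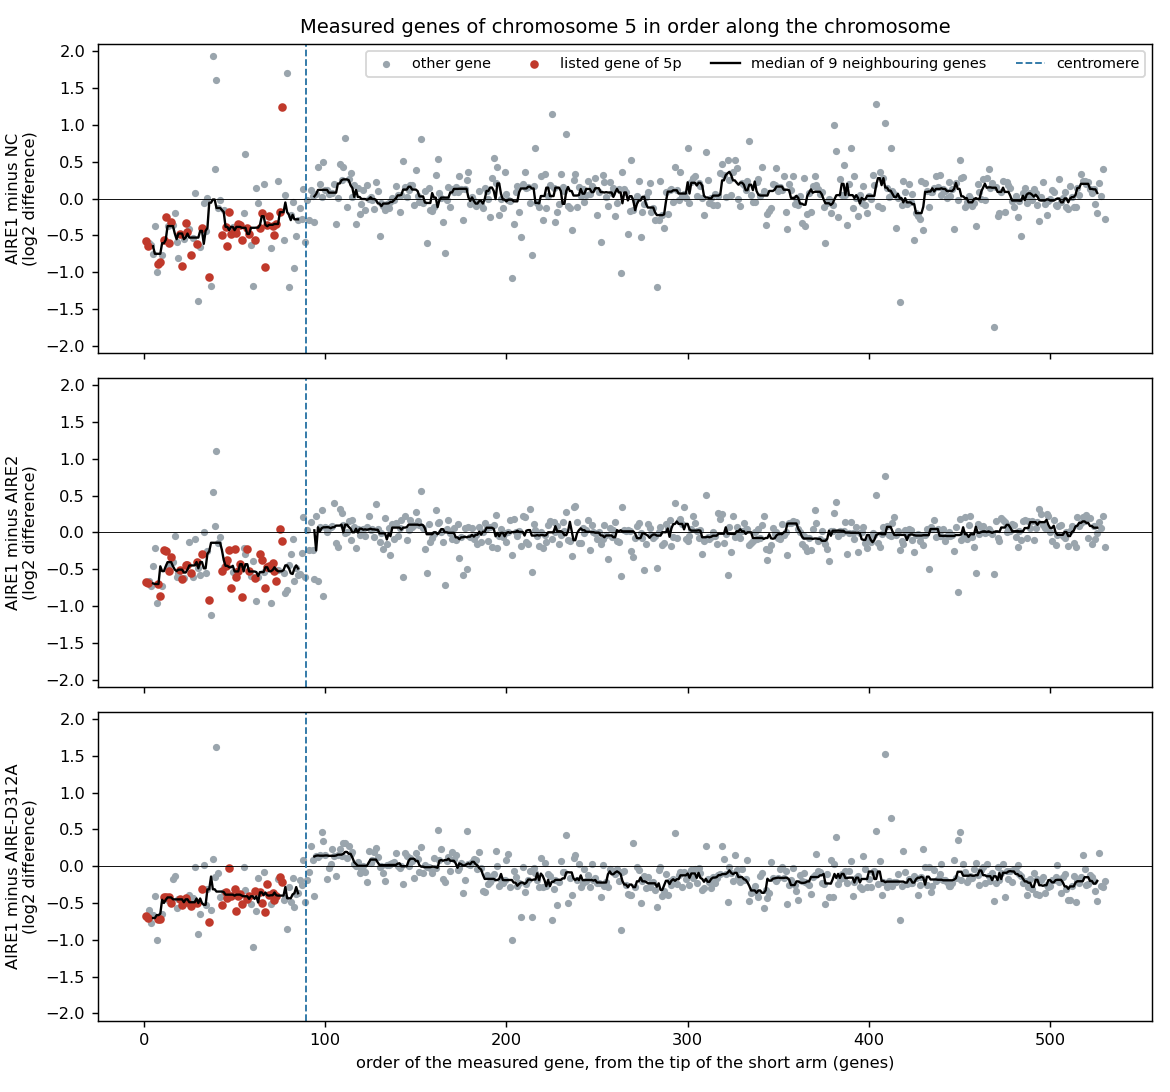
AIRE1 minus each other line (log2 difference) for every measured gene of chromosome 5 in order from the tip of the short arm; red points are the listed genes, grey points other genes, the black line the median of 9 neighbouring genes and the dashed line the centromere. The line stays at or below 0 over 5p in all 3 panels, lowest over the first genes, and changes at the centromere; over 5q it lies near 0 from NC and AIRE2 and mostly below 0 from AIRE-D312A.

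Over the 441 measured genes of 5q the medians were 0.06, 0.00 and -0.14. The last value goes with 5q of AIRE-D312A itself, whose median was 0.19 above NC, while the 5p median of that line was -0.02. Among 41 chromosome arms with at least 20 measured genes, 5p had the lowest median in all 3 AIRE1 comparisons, -0.40, -0.49 and -0.43 over its 89 genes. The next lowest were 11p at -0.23 from NC, 9p and 18p at -0.07 from AIRE2, and 5q from AIRE-D312A. In the comparisons without AIRE1, 5p held places 28, 12 and 30 counted from the lowest. The 11p median was also below 0 in AIRE2 and AIRE-D312A against NC.

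**Figure D4:**
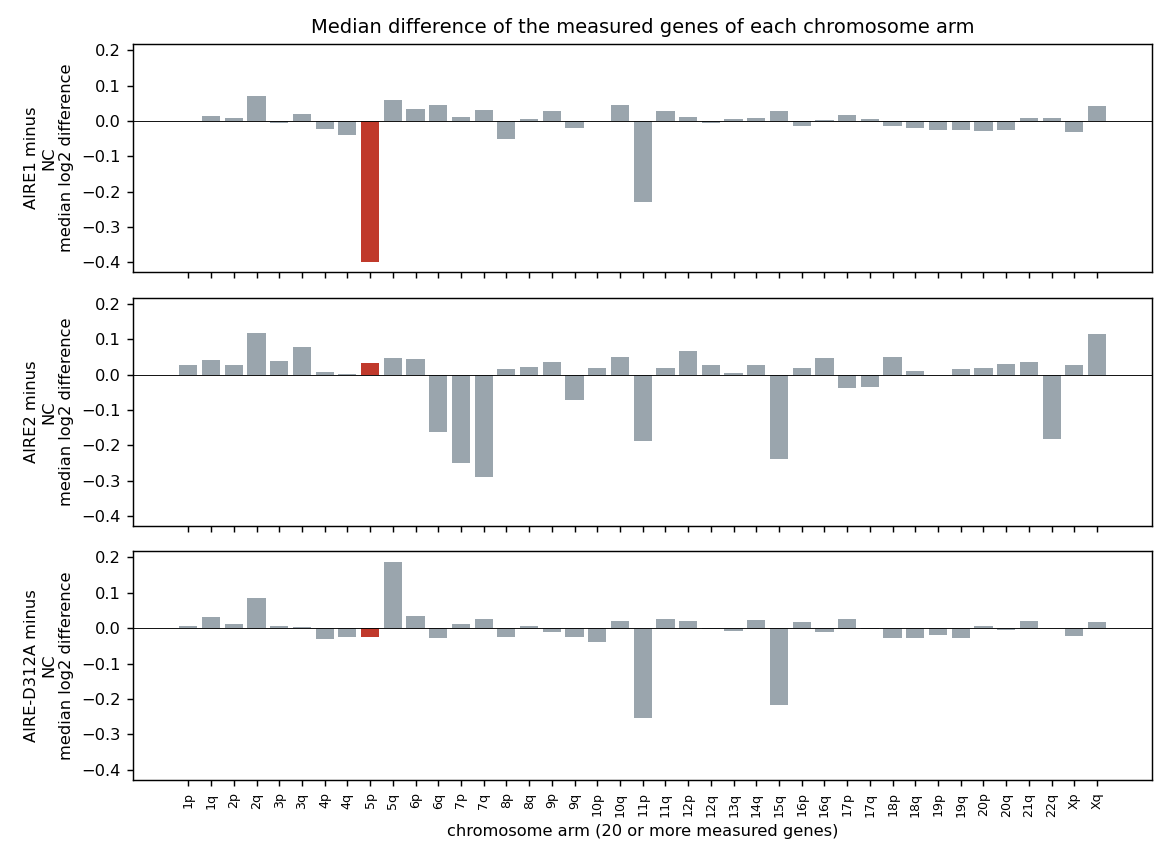
Median log2 difference from NC of the measured genes of each chromosome arm with 20 or more of them, in AIRE1, AIRE2 and AIRE-D312A; the bar of 5p is red. In AIRE1 5p has the lowest median of 41 arms, -0.40; in AIRE2 and AIRE-D312A its medians are 0.03 and -0.02.

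A change in gene dosage would move the genes of the arm by 1 ratio. Keeping 3 of 4 copies is -0.42 on the log2 scale, 2 of 3 copies -0.58 and 1 of 2 copies -1, beside member medians of -0.47, -0.47 and -0.43. The members were chosen for lower AIRE1 values, so their medians may not give the shift of the arm. The medians were -0.36, -0.50 and -0.41 for the 50 other measured genes of 5p. Over all 89 measured genes of the arm they were -0.40, -0.49 and -0.43. The first block of the arm, at -0.70, lay beyond the value for 2 of 3 copies. Which ratio lies nearest depends on the processing: the member median from NC was -0.34 with median centring, where that of all genes shifted as given above, -0.39 with an offset of 50 in the background correction, and -0.54 relative to all genes in the authors' deposited table. DNA copy number was not measured, so these figures are set side by side and no copy number is read from them. Whether the arm was lost was not tested.

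In the arm 5 pairs of measured genes start within 1000 bases of each other on opposite strands. TRIP13 and BRD9, with starts 83 bases apart, differed from NC by -0.86 and -0.88, and BRIX1 and RAD1, 207 bases apart, by -0.35 each. SDHA and CCDC127 were 0.07 apart from NC. SKP2 and LMBRD2 were 0.08 apart from NC, but from AIRE2 they stood at -0.53 and -0.23. In the remaining pair DROSHA stood at -0.50 and C5orf22, which is not on the list, at -0.16 from NC, while from AIRE2 they stood at -0.52 and -0.47.

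Genes elsewhere in the genome whose products act with those of the members centred near 0. Of 59 partners listed, 54 were measured. Their median difference in AIRE1 minus NC was 0.03, with 23 of 54 below 0; 0 were called lower by limma and 1 was called higher, where 8.27% of all genes were called in either direction, and 6 differed at an unadjusted p under 0.05, as 20.4% of all genes did. With the replicate block 1 was lower and 3 were higher, where 22.8% of all genes were called. The higher ones were CDKN1B, MTOR (0.27) and NUP93 (0.29). The 3 measured partners of SDHA in succinate dehydrogenase, the subunits SDHC and SDHD and the assembly factor SDHAF2, lay between -0.04 and 0.15, against -0.65 for SDHA. The 7 measured partners of CCT5 in the chaperonin lay between -0.24 and 0.12, against -0.76. DGCR8, the partner of DROSHA, was at -0.01, and the complex I partners of NDUFS6 ran from -0.02 to 0.23. The partner medians in AIRE1 minus AIRE2 and minus AIRE-D312A were 0.04 and -0.03. Against AIRE2 0 were called lower and 1 higher, PRKAG2 (0.51, adjusted p = 0.0151, limma), where 153 of 11947 genes were called higher. PRKAG2 differed from NC by 0.01 in AIRE1 and -0.50 in AIRE2. With the block 6 were higher against AIRE2, where 897 of 11947 genes were. Against AIRE-D312A 0 were called, and with the block 2 were lower, where 3.87% of all genes were.

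The partner called higher in AIRE1 than in NC without the block was CDKN1B, which encodes p27, the protein that SKP2 marks for degradation. It read 7.86, 7.88 and 8.20 in NC and 8.64, 8.35 and 8.63 in AIRE1, against 8.61, 8.45 and 8.92 in AIRE2 and 8.44, 8.18 and 8.58 in AIRE-D312A. The AIRE1 difference from NC was 0.56 ± 0.15 (SE; adjusted p = 0.0458, limma), and AIRE2, where SKP2 did not pass the test, stood 0.68 above NC (adjusted p = 0.016). Without the block, the AIRE1 call was lost when NC replicate 1 or 2, AIRE1 replicate 1 or 3, AIRE2 replicate 1 or AIRE-D312A replicate 1 or 3 was left out. With the block, IL6ST, the co-receptor of LIFR and itself on 5q, was the partner called lower, at -0.34 (adjusted p = 0.00394).

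**Figure D5:**
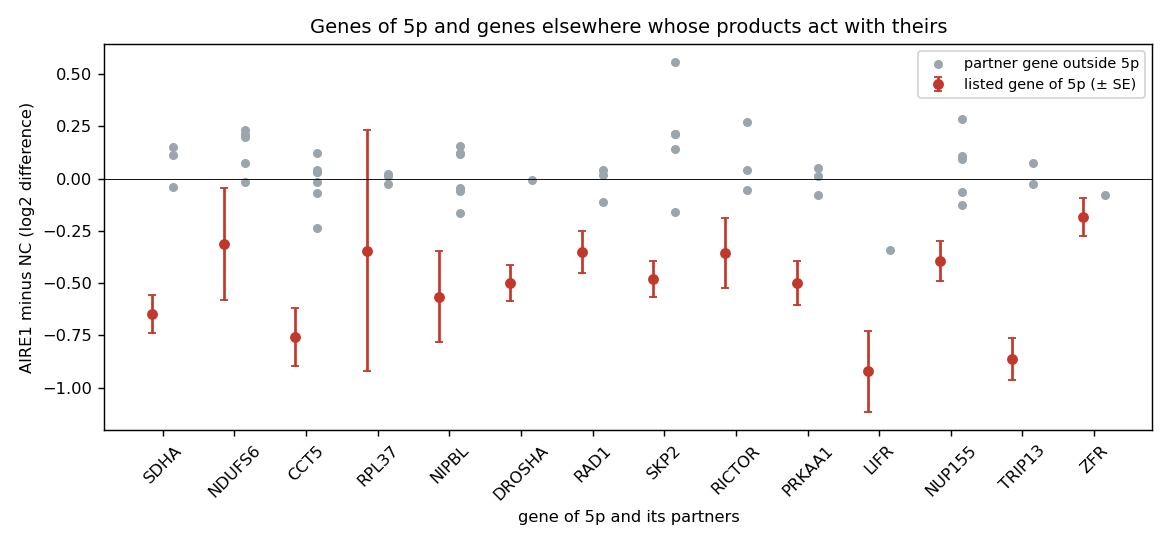
AIRE1 minus NC (log2 difference) for measured members with listed partners (red, with the standard error of the fit) and for their measured partner genes outside 5p (grey). The 4 measured partners of TERT, itself not measured, are not drawn. The members lie between -0.92 and -0.18 and the partners between -0.34 and 0.56.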

How the data were processed

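Per the labels' protocols, total RNA was reverse-transcribed and amplified from 250 ng, labelled with biotin and read on bead arrays. Per the file headers, the deposited files hold a linear average intensity and a detection p-value for each probe, and per the submitters' processing notes BeadStudio 3.1.3.0 was used. A table of the authors' intensity values per line served as an alternative.

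From the intensities, background was corrected by normexp (negative-control parameters inferred from the detection p-values, offset 16), arrays were quantile-normalised and values taken to log2 (limma 3.58.1, R 4.3.3). For AIRE-D312A replicate 3 the detection limit was predicted from its 40th percentile of intensity. Kept were probes with a detection p below 0.01 on every array of some line, each gene by its brightest probe; 24782 of 48701 probes had 1 gene symbol, 0 several and 23919 none. RefSeq (GRCh38.p14) gave symbols, gene order, arms and promoter windows. A fit over 12 arrays with a mean per line gave 6 contrasts, and code was tested on simulated data. Arrays of 1 replicate number deviated together (r from 0.33 to 0.85 over 18 same-number pairs, -0.74 to 0.53 over 36 others). Counts of members and partners with the block therefore stand beside those without it. Standard errors are from the fit without the block, and no blocked p-values are given for single members in AIRE1. Replicates were independent experiments per the labels. Genes were named by rule: the 5 members at each end of AIRE1 minus NC, members called without AIRE1, 1 or 2 a role, the 5 other 5p genes furthest from the member median, and called partners; others were chosen after their values were seen. Members and lists were chosen with earlier results of these data known.

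Alternatives were median centring, offset 50, no background correction, no detection filter, the mean of all probes, the replicate block, each array left out, all number 2 arrays left out, and the authors' table.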

Additional observations from a re-analysis of the deposited data

How the results depend on the processing

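No setting turned the direction of the member medians in the AIRE1 comparisons. With median centring 4, 1 and 1 members were called in AIRE1 against NC, AIRE2 and AIRE-D312A (medians -0.34, -0.39 and -0.39) and 1 in AIRE2 against NC; the medians were 0.017 for members in AIRE-D312A minus NC, -0.23 for other 5p genes and 0.18 for 5q. With an offset of 50 the AIRE1 medians from NC and AIRE-D312A were -0.39 and -0.38, for other 5p genes -0.26 and for 5q 0.05, the members' interquartile range from NC 0.19, and 1 member was called in AIRE2 against NC. Without background correction the 3 AIRE1 medians were -0.38, -0.44 and -0.38, for other 5p genes -0.26 and for 5q 0.049, with a range of 0.19 and again 1 call in AIRE2 against NC. Without the detection filter, which adds genes not above background, the medians were -0.40 from NC, -0.41 from AIRE-D312A, 0.047 in AIRE2 minus AIRE-D312A, -0.045 for other 5p genes and 0.022 for 5q, the range was 0.32, and 0 partners were called. With the replicate block 32, 30 and 31 members were called in the AIRE1 comparisons, 5, 4 and 2 in the others (AIRE2 and AIRE-D312A against NC, AIRE2 against AIRE-D312A), and 4 partners. Without the number 2 arrays the medians were -0.51 from NC and -0.47 from AIRE-D312A, -0.02 in AIRE2 minus NC and -0.078 in AIRE-D312A minus NC, and 21 members were called against AIRE2. In the authors' deposited table the medians, each less that of all genes, were -0.54 in AIRE1 minus NC, -0.47 in AIRE1 minus AIRE-D312A, -0.092 in AIRE2 minus NC, -0.064 in AIRE-D312A minus NC and -0.056 in AIRE2 minus AIRE-D312A. Apart from the filter, the cause was not tested.

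Leaving out 1 array at a time gave 13 to 25 members called in AIRE1 against NC, 7 to 17 against AIRE2 and 6 to 13 against AIRE-D312A, with medians of -0.51 to -0.44, -0.51 to -0.46 and -0.47 to -0.41. The fewest were called against NC without AIRE1 replicate 2, against AIRE2 without AIRE1 replicate 1 or 2 (7) or AIRE2 replicate 3 (8), and against AIRE-D312A without any 1 array of AIRE1 or AIRE-D312A (6). In AIRE2 against NC 1 to 2 members were called, with medians of -0.023 to 0.049. Medians ran from -0.073 to -0.026 in AIRE-D312A minus NC and from 0.008 to 0.047 in AIRE2 minus AIRE-D312A. In AIRE1 minus NC they ran from -0.37 to -0.28 for other 5p genes and from 0.04 to 0.071 for 5q, the members' interquartile range from 0.23 to 0.32, and 0 to 1 partners were called.

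Each line is 1 clone or stable line, and 3 arrays limit the precision of single genes. Without the replicate block, members with differences near the median often missed the threshold. The block raised the members called lower against NC from 20 to 31, and nothing is read from these counts. Signals near background can understate differences. The 13 dimmest members had medians of -0.56 from NC and -0.38 from AIRE2, against -0.47 and -0.51 for the 13 brightest. The listed genes that were not detected carry no value on the shift.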
